A study of Mus musculus with 6 samples.

Results

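Broad RUNX1 regions are the stretches of 2 kb or more over which RUNX1 peaks of both replicates ran together in mouse granulosa cells 6 h after an ovulatory dose of human chorionic gonadotropin (hCG). They were found by merging all peaks of both 6 h replicates that shared at least 1 bp, keeping the merged regions with a peak of each replicate, and taking those whose merged width reached 2000 bp, whatever their overlap with peaks before hCG. The rule gave 234 broad regions among 17190 replicated 6 h regions, and 16956 regions were narrower. The regions were thus selected on their merged width in the 6 h lists, and the widths, peak numbers and fold enrichments at 6 h are given as a description. The overlap with peaks at 0 h and the position relative to genes were not used by the rule.

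RUNX1 was measured by chromatin immunoprecipitation and sequencing (ChIP-seq), with 2 libraries at 0 h (before hCG) and 2 libraries at 6 h, each compared by the peak caller with an input pooled for its time point. Per the labels the cells came from CBA x C57BL/6 F1 mice aged 21 days. Follicle growth was driven with equine chorionic gonadotropin (eCG, 5 IU), and hCG (5 IU) came 46 h after it. The treatment text is identical for all samples and names only the 6 h collection, so the 0 h group rests on the sample titles and the time-point label. The labels do not say whether the replicates of a time point came from separate mice, and the spread between them may be technical.

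RUNX1 is a sequence-specific transcription factor that binds DNA through its Runt domain together with the partner CBFB and can activate or repress genes with different cofactors. In the ovary it is made in granulosa cells, the somatic cells around the oocyte, and its gene is induced by the luteinising hormone surge that hCG stands in for. A ChIP-seq peak at a single binding site is usually far narrower than a gene, since its width follows the length of the DNA fragments, and wider peaks can span several neighbouring sites.

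Sequence can be shown where a broad region covers a promoter. Of the 289 annotated genes overlapped by broad regions, 221 had an entry in the RefSeq promoter table (GRCm38.p6), and the 250 bases before the transcription start are printed for 6 of them, each 5′ to 3′ on the strand of its gene. They were chosen to show promoters of both kinds: Ing2, Retreg2 and Sf3a2 hold a RUNX core, while Atf3, Junb and Tle1 hold none in these 250 bases. Ing2 encodes a reader of methylated histone H3, Retreg2 a receptor for autophagy of the endoplasmic reticulum and Sf3a2 a subunit of the U2 particle of the spliceosome. Atf3 and Junb encode AP-1 family transcription factors, and Tle1 a Groucho corepressor that binds RUNX proteins. Capitals mark the RUNX cores TGTGGT and TGCGGT read on either strand, so the same core on the other strand appears as ACCACA or ACCGCA.
Ing2, chr8:47675160-47675409, minus strand: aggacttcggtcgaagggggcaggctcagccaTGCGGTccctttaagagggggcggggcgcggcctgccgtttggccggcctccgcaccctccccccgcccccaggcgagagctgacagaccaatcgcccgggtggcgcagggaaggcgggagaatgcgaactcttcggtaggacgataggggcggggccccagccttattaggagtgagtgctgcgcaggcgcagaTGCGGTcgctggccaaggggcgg
Retreg2, chr1:75142536-75142785, plus strand: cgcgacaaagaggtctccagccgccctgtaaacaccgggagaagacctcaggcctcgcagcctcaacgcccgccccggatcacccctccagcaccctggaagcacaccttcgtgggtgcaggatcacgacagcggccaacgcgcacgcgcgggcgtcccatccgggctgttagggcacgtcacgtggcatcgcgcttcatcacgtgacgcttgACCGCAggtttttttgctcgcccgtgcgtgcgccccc
Sf3a2, chr10:80798485-80798734, plus strand: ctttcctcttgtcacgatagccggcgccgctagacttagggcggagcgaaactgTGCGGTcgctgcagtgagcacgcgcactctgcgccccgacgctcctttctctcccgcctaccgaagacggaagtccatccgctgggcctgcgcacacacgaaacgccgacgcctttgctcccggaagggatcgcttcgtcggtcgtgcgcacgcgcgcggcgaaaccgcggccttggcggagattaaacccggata
Atf3, chr1:191183334-191183583, minus strand: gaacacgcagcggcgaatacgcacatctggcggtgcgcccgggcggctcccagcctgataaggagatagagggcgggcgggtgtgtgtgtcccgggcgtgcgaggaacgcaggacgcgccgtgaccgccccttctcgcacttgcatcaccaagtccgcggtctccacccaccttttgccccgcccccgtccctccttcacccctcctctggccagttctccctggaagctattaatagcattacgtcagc
Junb, chr8:84978749-84978998, minus strand: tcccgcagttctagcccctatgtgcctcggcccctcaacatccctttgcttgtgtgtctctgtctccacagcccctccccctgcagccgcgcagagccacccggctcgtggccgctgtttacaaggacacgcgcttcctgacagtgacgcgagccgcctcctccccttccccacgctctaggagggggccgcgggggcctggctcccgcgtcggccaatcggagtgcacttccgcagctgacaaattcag
Tle1, chr4:72200894-72201143, minus strand: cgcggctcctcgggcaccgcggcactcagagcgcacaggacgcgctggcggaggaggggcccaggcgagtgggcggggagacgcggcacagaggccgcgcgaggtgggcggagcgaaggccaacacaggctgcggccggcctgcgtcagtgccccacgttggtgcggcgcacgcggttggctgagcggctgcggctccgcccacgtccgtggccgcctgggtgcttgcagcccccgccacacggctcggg
The strongest summits of both 6 h replicates lay inside the printed bases at Ing2, Retreg2, Atf3, Junb and Tle1, and at Sf3a2 only that of replicate 2 did. Ing2 held 2 cores, Retreg2 and Sf3a2 held 1 each. A match is a description of the letters and not a measured binding site, and its absence says only that these letters are not in this window.

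Over all promoter windows of 300 bases (250 before and 50 after the start), 219 windows of 175 genes were touched by a broad region, and 52 of them held TGTGGT or TGCGGT on either strand, 23.7% (exact Clopper-Pearson 95% confidence interval 18.3 to 29.9). The share was 23.2% of the 8534 windows touched only by narrower replicated regions, 22.1% of the 24098 windows touched by none, and 22.4% of all 32851 windows. The share of broad-region promoters with a RUNX core therefore lay within counting error of the share of all promoters. By single core, TGCGGT was in 16.0% of the broad-region promoters (11.4 to 21.5), 12.5% of those touched only by narrower regions and 6.45% of all promoters. TGTGGT was in 8.22% (4.94 to 12.7), 12.0% and 16.8%. The shares in promoters touched only by narrower regions thus lay inside the intervals of the broad-region promoters, and those of all promoters outside. The broad-region promoters were also rich in CG dinucleotides, with a median of 27 per window against 25 in windows touched by narrower regions only and 7 over all windows. The median GC content was 66.0%, 63.7% and 52.7% in the same order, and its part in the split of the cores was not tested.

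Motifs of 4 other factor families were less frequent there than over all promoters and more frequent than in promoters touched only by narrower regions. The AP-1 site TGANTCA was in 4.57% of the broad-region promoters (95% confidence interval 2.21 to 8.24), 4.12% of those touched only by narrower regions and 7.81% of all. The TEAD site GGAATG was in 12.3% (8.28 to 17.4), 10.5% and 14.7%. The nuclear receptor 5A site TCAAGGNCA was in 1.37% (0.283 to 3.95), 0.879% and 1.62%, and the GATA site GATAAG in 5.94% (3.20 to 9.94), 3.77% and 7.44%. For each motif the interval of the broad-region promoters holds both other shares. These motifs were searched on both strands and differ in sequence from the RUNX cores. Overlapping promoters share bases, so the windows are not independent, and the intervals cover counting error only.

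The broad regions covered 610119 of the 12351177 bp held by all replicated 6 h regions, 4.94%. Their median width was 2336.5 bp (range 2001 to 9537), against a median of 611 bp over all replicated regions. The limit cuts a continuous range of widths. The members nearest to it were regions in Gm30568 (2003 bp), in Vps26c, a subunit of an endosomal sorting complex (2002 bp), and at Ing2 (2001 bp). Just outside lay regions at Fam13b (1995 bp), at Arhgap23 (1993 bp) and at Clcf1 (1993 bp). A region at Ski had the same width as the last pair. The fold enrichment, which is the read pileup over the expected background at the summit as the peak caller reports it, was 31.3 and 53.8 in 6 h replicates 1 and 2 at Gm30568, 41.8 and 54.9 at Vps26c, and 13.7 and 10.9 at Ing2. It was 16.0 and 18.9 at Fam13b, 19.3 and 16.1 at Arhgap23, and 10.3 and 9.10 at Clcf1.

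Most broad regions were few peaks rather than many. Both 6 h lists together gave 2 peaks, 1 per replicate, in 118 regions, 3 peaks in 81, 4 in 26, 5 in 7, and 6 and 7 peaks in 1 region each. Replicate 1 had 1 peak in 145 regions, 2 in 70, 3 in 15 and 4 in 4, and replicate 2 had 1 peak in 193, 2 in 35, 3 in 4, and 4 and 6 in 1 region each. A single peak reached 2 kb in replicate 1 in 127 regions, in replicate 2 in 177 and in both in 94, while 24 regions had no such peak in either replicate and reached 2 kb only by merging. In 75 regions 1 peak of replicate 2 spanned several peaks of replicate 1, and in 27 the reverse held. Broad regions thus took up 346 of 18761 peaks in 6 h replicate 1 and 285 of 28671 in replicate 2.

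The replicates placed their strongest summits at nearly the same base in most regions. The distance between them had a median of 38.5 bp, was at most 100 bp in 163 regions and exceeded 500 bp in 47. The fold of the strongest peak had a median of 18.8 (1.94 to 61.7) in replicate 1 and 26.9 (2.50 to 102) in replicate 2, against 8.91 and 13.9 over all replicated regions. As a rank within its own list, the strongest peak was above the 90th percentile in 126 regions in replicate 1 and in 134 in replicate 2, and below the 50th percentile in 20 and 15. The mean of the percentiles in both lists had a median of 91.5, against 59.1 over all replicated regions. Wide regions therefore tended to be strong ones in both lists, with a tail of wide and weak ones in the plot of fold by replicate.

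**Figure D1:**
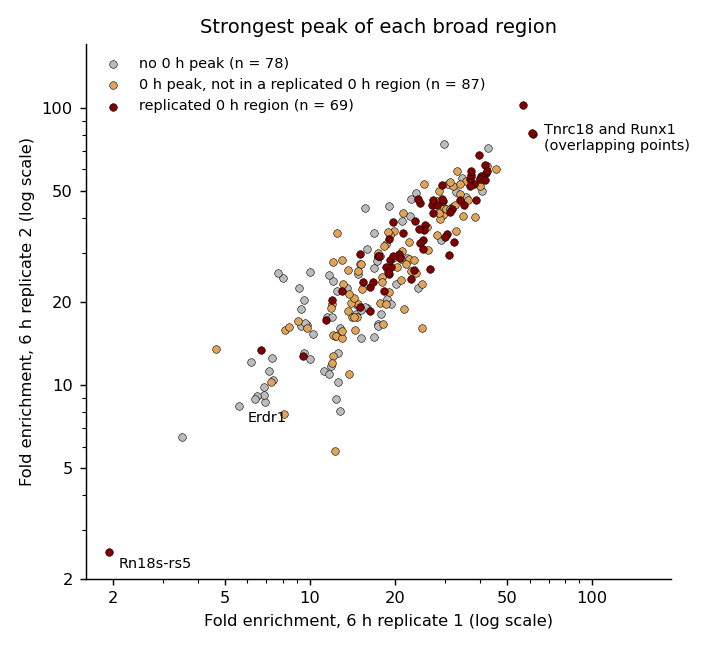
Fold enrichment of the strongest peak of each of the 234 broad regions in 6 h replicate 1 (x axis) and 6 h replicate 2 (y axis), both on log scales, coloured by overlap with peaks at 0 h. Tnrc18 (61.7 and 80.7) and a Runx1 region (61.1 and 81.0) overlap near the top, and the Rn18s-rs5 region (1.94 and 2.50) sits alone at the bottom left.

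Facts of the libraries bear on all of these values. The lists of 0 h replicates 1 and 2 had 948 and 3135 peaks, and those of the 6 h replicates 18761 and 28671. The commonest background of a list, which scales with the reads used and was recovered from each pair of fold and p-value, was 2.77 and 2.65 reads at 0 h and 2.76 and 2.13 at 6 h. Single peaks of 2 kb or more numbered 1, 2, 127 and 178 in the same order. Among the marker lists, a replicated 6 h region lay in or within 10 kb of 7 of 8 granulosa genes, 4 of 6 theca and stroma genes, 4 of 6 leukocyte genes and 2 of 6 endothelial genes, against 53.3% of all protein-coding genes. A peak does not measure expression, so these counts do not check the purity of the cells, which was not tested.

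Of the broad regions, 5 stood on a background more than 5 times the commonest one in their list, and 3 of these were among the 4 widest. The region over Rn18s-rs5 and AY036118, copies of ribosomal RNA sequence (chr17:39842994-39848850, 5857 bp), had a pileup of 400 and 399 reads over a background of 206 and 159, and a fold of only 1.94 and 2.50. It was the one such region with peaks at 0 h in both replicates, with a fold of 1.80 and 2.58. The region on chromosome Y (chrY:90785592-90791776, 6185 bp), which overlapped no annotated gene, had 1 peak in replicate 1 and 6 in replicate 2, with a fold of 3.52 and 6.52. The region in Erdr1 on chromosome X (chrX:170010675-170017192, 6518 bp) had 1 peak and 4 peaks, with a fold of 5.59 and 8.42. Neither had a peak at 0 h. The others were at Jun and at Clic4, a chloride intracellular channel gene. Replicate 1 alone had the raised background at Erdr1 (16.9 reads), on chromosome Y (26.5), at Jun (16.1) and at Clic4 (15.3). Granulosa cells are ovarian cells, so the region on chromosome Y is not read as RUNX1 binding to that chromosome. The origin of its reads, and the part of repeated sequence in all 5 regions, were not tested. Without these regions 229 remained, of which 29.7% overlapped a replicated 0 h region, 66.8% any 0 h peak and 66.8% an annotated gene end. The same shares over all 234 are given below.

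The widest region with ordinary background lay over Tnrc18, a large chromatin protein gene, and Gm31365 (chr5:142814812-142824348). It was 9537 bp wide and held 2 peaks of each 6 h replicate, with a fold of 61.7 in replicate 1 and 80.7 in replicate 2. At 0 h it held 3 peaks of replicate 1 and 8 of replicate 2, with a fold of 32.4 and 40.6, and these covered 48.7% of its width. It had the highest mean percentile at 0 h of all broad regions with a replicated 0 h region, and its strongest 0 h summit lay 32 bp from the strongest 6 h summit.

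Trim8, a ubiquitin ligase gene of the tripartite motif family, followed among the widest (chr19:46499609-46504890, 5282 bp). Replicate 1 split it into 4 peaks and replicate 2 into 2, with a fold of 35.6 and 54.3, and at 0 h only replicate 2 had peaks, 3 of them, with a fold of 9.31. Its 0 h peaks covered 25.1% of the width. The region in Gas2l1, which links actin and microtubules, was 4950 bp wide with 2 peaks in each replicate, a fold of 12.1 and 23.8, and no peak at 0 h. A region of 4804 bp covered the starts of Brd2, a reader of acetylated histones, and H2-DMa, a chain of a peptide-loading chaperone for MHC class II. It had a fold of 15.0 and 19.1 at 6 h and of 4.72 and 11.1 at 0 h. The Klf13 region, 4581 bp over the start of a Kruppel-like zinc finger gene, had a fold of 17.7 and 19.8, and at 0 h only replicate 2 had peaks (8.08).

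The 10 widest were completed by regions near Midn and at Gata6. A region outside genes 3639 bp from an end of Midn (chr10:80159082-80163364, 4283 bp) had a fold of 40.2 and 56.9 at 6 h and of 7.10 and 13.2 at 0 h. The region over Gata6 and the antisense Gata6os (4266 bp on chromosome 18) had a fold of 25.0 and 33.3 at 6 h and of 7.86 and 12.9 at 0 h. Gata6 encodes a zinc finger factor of granulosa cells, and the region overlaps both annotations, so it is not assigned to either of them alone. The strongest 0 h summit lay 1009 bp from the strongest 6 h summit near Midn and 945 bp from it at Gata6. The Gata6 region also held a 0 h peak at the 6 h summit in both replicates, with summits 64 and 3 bp from it and a fold of 7.82 and 10.3, and the Midn region held none there.

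**Figure D2:**
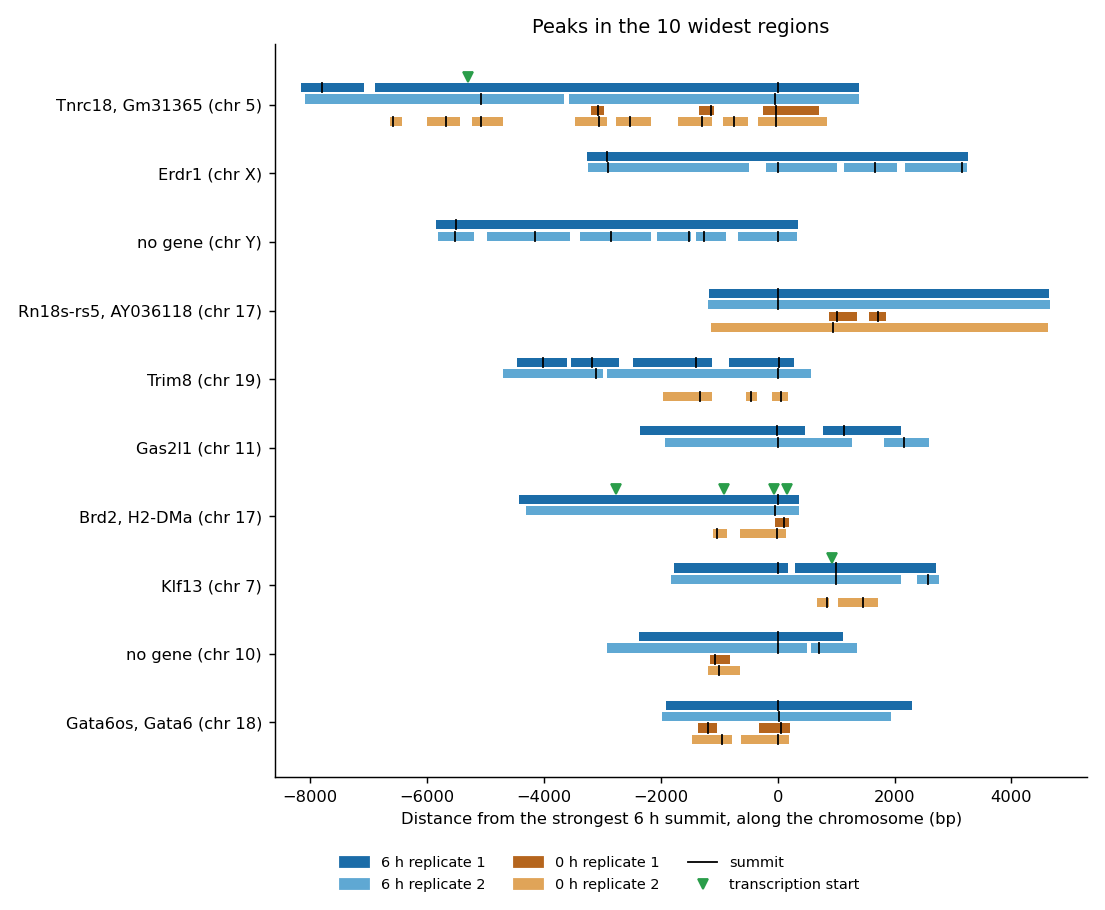
Peaks in the 10 widest broad regions, by distance in bp from the strongest 6 h summit along the chromosome, with bars for the peaks of each library, black ticks for summits and triangles for annotated transcription starts. The Tnrc18 region holds 3 and 8 peaks at 0 h, while Erdr1, the chromosome Y region and Gas2l1 hold none.

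The region with the most peaks was that on chromosome Y, with 7 in all, followed by Trim8 with 6. Erdr1, Wnt10b and the region at Gm7854 near Cpeb2 had 5 each, and were the widest of the 7 regions with 5 peaks. Wnt10b, a Wnt ligand gene (chr15:98776802-98781014, 4213 bp), had 2 peaks in replicate 1 and 3 in replicate 2, a fold of 25.3 and 53.3, and a single 0 h peak in replicate 2 (7.63) that covered 4.82% of the width. At Cpeb2, which encodes a regulator of messenger RNA polyadenylation, replicate 1 had 4 peaks and replicate 2 had 1 across 3243 bp, with a fold of 16.0 and 18.9 and none at 0 h. The same stretch was therefore cut into separate peaks in one list and joined in the other.

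The highest mean percentile at 6 h belonged to a region outside genes on chromosome 2 (chr2:105457639-105460043, 2405 bp), 16824 bp from an end of 4930527A07Rik. At 6 h its fold was 56.6 and 102, and at 0 h it was 11.9 and 14.8. Next came Tnrc18, and then a region in Runx1 itself (chr16:92633680-92635802, 2123 bp) with a fold of 61.1 and 81.0 at 6 h, against 13.1 and 16.5 at 0 h. The other broad region in Runx1 (chr16:92695206-92699033, 3828 bp) covered an annotated start and had 35.2 and 44.7 at 6 h, with 4.13 and 9.09 at 0 h. In each of these 4 regions the 6 h folds of both replicates exceeded both 0 h folds. All 4 were selected on 6 h peaks, and most were named for their 6 h rank, which favours that direction. A fold is also relative to its own library and input, and the difference was not tested.

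The other 7 of the 10 highest at 6 h followed. The region over the starts of Zbtb25 and Zbtb1, BTB zinc finger genes (2709 bp), had 45.5 and 60.0 at 6 h, and 8.76 in 0 h replicate 2 only. Hes1, a Notch-responsive repressor (2552 bp), had 42.5 and 61.7, and 11.8 in 0 h replicate 2 only. Both were thus found before hCG in the longer 0 h list alone. The region in Mad1l1, a spindle checkpoint gene (2723 bp), had 42.6 and 71.9 and no 0 h peak. A region 2888 bp from an end of Cdkn1b, the gene of the cell cycle inhibitor p27, and next to the noncoding Lockd (chr6:134926697-134928900, 2204 bp) had 41.7 and 62.4 at 6 h and 19.4 and 38.9 at 0 h. Among the remaining 3, Gm31596 had 39.5 and 67.9 at 6 h, Tnxb 41.9 and 58.4, and a region near E230001N04Rik 42.3 and 59.0, and all 3 had peaks in both 0 h replicates.

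A peak at 0 h was common in the broad regions. A 0 h region with peaks of both 0 h replicates overlapped 69 of the 234, 29.5% (95% confidence interval 23.7 to 35.8), against 4.60% of all replicated 6 h regions. Any 0 h peak overlapped 156, 66.7% (60.2 to 72.7), against 16.5%. A further 87 regions thus had 0 h peaks but no replicated one, and 78 had none. By library, a peak of 0 h replicate 1 lay in 71 regions and one of replicate 2 in 154, so the result rests mostly on the longer 0 h list. With only peaks of a −log10 q of at least 20 in all lists, the shares were 15.7% for a replicated 0 h region and 38.9% for any 0 h peak. Merging peaks up to 500 bp apart gave 655 regions, 18.8% with a replicated 0 h region, and requiring 50% of both intervals to be shared left 3.42%. The shares over all replicated 6 h regions are not given for these settings, so the 4.60% and 16.5% above are not their comparators. Counted as peaks, 81 of 948 in the list of 0 h replicate 1 (8.54%) and 226 of 3135 in that of replicate 2 (7.21%) lay in broad regions.

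A wide region offers more bases to overlap, so the comparison was repeated in a window of 500 bp at the strongest 6 h summit, the same for every region. A 0 h peak lay in that window in 144 broad regions, 61.5% (55.0 to 67.8), against 16.0% of all replicated 6 h regions. The share rose with width below the limit too, from 4.82% of 6120 regions under 500 bp to 15.3% from 500 bp, 34.6% from 1000 bp and 48.5% from 1500 bp up to the limit. Within the broad regions it was 60.2% of the 191 under 3000 bp and 67.4% of the 43 wider ones. No step at 2 kb was visible in these classes. No test was made between them, since regions of the same libraries are not replicates.

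**Figure D3:**
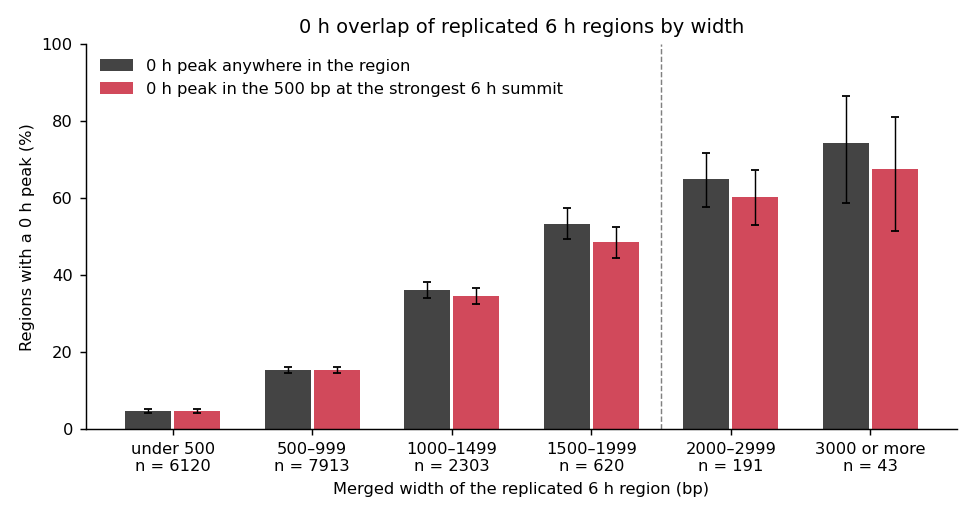
Percent of replicated 6 h regions with a 0 h peak, by merged width in bp, anywhere in the region (grey) or in the 500 bp at the strongest 6 h summit (red), with exact 95% binomial intervals. The dashed line marks 2 kb, and the red bars climb from 4.82% in the narrowest class to 67.4% in the widest.

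Strong 6 h regions were also more often found at 0 h, so broad and narrower regions were set side by side within bands of 6 h rank. In the top band, a mean percentile of 95 or more, a 0 h peak lay in the summit window of 80.7% of 83 broad regions and 57.7% of 931 narrower ones. From 90 to 95 the shares were 68.2% of 44 and 39.0% of 1005, from 80 to 90 they were 56.2% of 48 and 26.8% of 2032, and from 50 to 80 they were 35.7% of 42 and 12.4% of 6269. Below 50 they were 29.4% of 17 (95% confidence interval 10.3 to 56.0) and 5.25% of 6719. For any 0 h peak, the broad regions had the higher share in all 5 bands, with intervals that did not overlap those of the narrower regions. The lowest band held 4 of the 5 regions on raised background, and without them its share was 23.1% of 13 (5.04 to 53.8), an interval that overlaps that of the narrower regions (4.73 to 5.81). The bands are wide, and broad regions ranked somewhat higher within some of them, with a median mean percentile of 35.2 against 31.8 below 50, 68.6 against 64.8 from 50 to 80, and 98.3 against 97.4 in the top band. By peaks of 0 h replicate 1 alone the intervals overlapped in the lowest bands, with 5.88% of broad and 1.06% of narrower regions below 50, and 7.14% and 2.82% from 50 to 80. These intervals cover counting error over regions only, and the same 4 libraries lie behind every band.

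**Figure D4:**
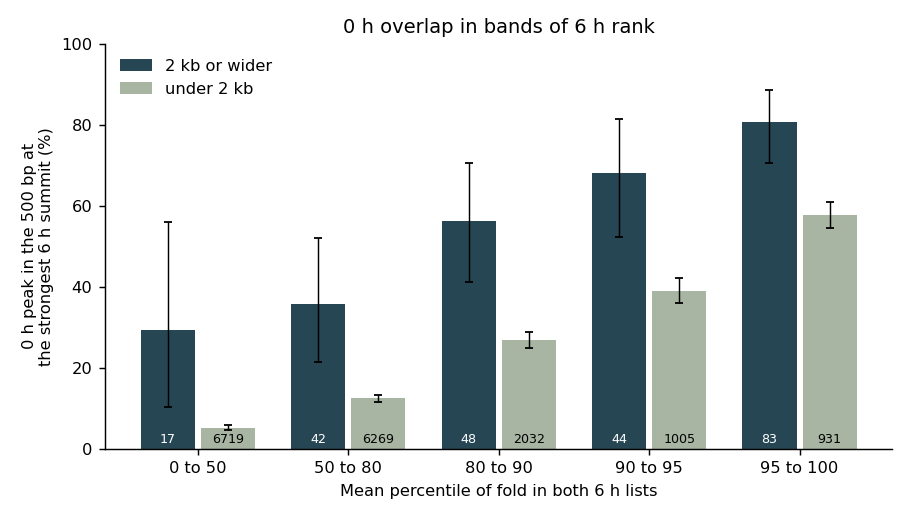
Percent of regions with a 0 h peak in the 500 bp at the strongest 6 h summit, for broad (dark) and narrower (light) replicated 6 h regions, in bands of the mean percentile of fold in both 6 h lists, with exact 95% binomial intervals and the number of regions in each bar. In the top band the shares are 80.7% and 57.7%.

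At 0 h the peaks in these places were far narrower than the 6 h regions. The strongest 0 h peak had a median width of 300 bp in replicate 1 (71 regions) and 421.5 bp in replicate 2 (154 regions), and a median fold of 7.96 and 8.62. Over the whole 0 h lists the median peak was 263 and 292 bp wide with a fold of 7.69 and 7.28. The strongest 0 h peaks of broad regions were thus wider and slightly higher, at a median percentile of 54.2 and 71.0 of their lists. Taking the strongest peak where a region held several favours this. All 0 h peaks of a region together covered a median of 23.4% of its 6 h width (4.82 to 98.7). Only 2 of the 847 replicated 0 h regions were themselves 2 kb or wider. The strongest 0 h summit lay within 100 bp of the strongest 6 h summit in 95 of the 156 regions with a 0 h peak (60.9%), and over 500 bp away in 26. The 0 h peak was thus most often a short piece at the 6 h summit.

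Regions found at 0 h were the stronger ones at 6 h. The median fold at 6 h was 25.2 and 35.3 in replicates 1 and 2 for the 69 regions with a replicated 0 h region, 19.0 and 26.6 for the 87 with unreplicated 0 h peaks, and 14.6 and 19.6 for the 78 with none. Median widths were 2331, 2403 and 2294.5 bp in the same order. The 3 classes thus differed in 6 h fold by more than in width, and their ranges of fold overlapped.

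After Tnrc18, the strongest at 0 h were a region in Rai1, a chromatin-associated regulator gene, and one in Tnxb, a matrix protein gene. Rai1 (chr11:60175559-60177687) had a fold of 21.3 and 26.5 at 0 h and 36.9 and 52.2 at 6 h. Tnxb (chr17:34679999-34682310) had 21.6 and 22.5 at 0 h, against 41.9 and 58.4 at 6 h. The region near Cdkn1b came next. A region 10524 bp from Gm42194 and 56028 bp from Fndc3b had 18.9 and 22.6 at 0 h and 34.0 and 46.6 at 6 h. Pik3r2, a regulatory subunit of phosphoinositide 3-kinase, had 15.7 and 19.1 at 0 h and 31.7 and 43.1 at 6 h.

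At the start shared by Cnppd1 and Retreg2 the 0 h folds were 14.8 and 20.4, and the 6 h folds 30.1 and 34.2. Irgq, an immunity-related GTPase gene, had 15.3 and 17.9 at 0 h and 37.1 and 57.1 at 6 h. A region in Gata4, which encodes a factor of granulosa cells with roles in follicle growth (chr14:63244415-63246659), showed a smaller gap. At 0 h its fold was 15.5 and 16.2, and at 6 h it was 13.0 and 21.8, so the values of the time points overlapped. Sema7a, a membrane-anchored semaphorin gene, had 16.6 and 14.4 at 0 h and 18.5 and 26.6 at 6 h. Of these 10 regions, only Gata4 had a 6 h fold below its 0 h folds in either replicate. All 10 belong to a set selected on 6 h peaks, which favours higher 6 h folds, and the difference was not tested.

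The strongest regions with no 0 h peak in either list were led by Mad1l1. Ate1, an arginyltransferase gene (2479 bp over its start and that of Gm4275), had a fold of 37.9 and 54.8 at 6 h, and Gm32659 had 40.5 and 50.3. Wwp2, a ubiquitin ligase gene, had 34.5 and 55.7. A region 11044 bp from Sp7, an osteoblast transcription factor gene, had 29.9 and 74.2, the widest gap between the replicates among these 10. The start of Tnfrsf12a, the receptor of the cytokine TWEAK, had 35.6 and 47.7.

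Angptl4, which encodes a secreted inhibitor of lipoprotein lipase (chr17:33778892-33781602, 2711 bp), had 32.9 and 49.6 at 6 h. A region in Otulin, a deubiquitinase gene, near the end of Ank, had 30.8 and 53.2. Dtx2, a Deltex ubiquitin ligase gene, had 23.7 and 49.5, and Rpp25, a subunit of ribonuclease P, had 22.7 and 46.8. All 10 were above the 95th percentile in both 6 h lists. The absence of a 0 h peak means only that none passed the calling limit in lists of 948 and 3135 peaks.

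Broad regions lay on gene ends and starts more often than all replicated regions pooled, but about as often as the regions just under the limit. An annotated gene end, start or finish, lay inside 156 of 234 (66.7%), against 37.9% of all replicated 6 h regions, and a transcription start of the promoter table lay inside 135 (57.7%), against 35.8%. A gene end lay inside 60.5% of regions of 1000 to under 1500 bp and 63.7% of those of 1500 to under 2000 bp, and a start inside 57.8% and 59.8%. In 57.3% of broad regions the strongest summit was at most 1 kb from a gene end, against 50.8% of all, and below the 67.0% and 64.8% of the same 2 narrower classes. It lay inside a gene but over 1 kb from an end in 72 (30.8%, against 33.4% of narrower regions), and outside genes and over 1 kb from an end in 28 (12.0%, against 15.9%). The gene table holds whole genes, so exons, introns and untranslated parts were not separated.

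In the 135 regions with a start, the peaks reached to both sides of it. The region extended a median of 1112 bp upstream of the start nearest the strongest summit and 1265 bp downstream, and further downstream in 77. The strongest summit lay within 250 bp of the start in 72, over 500 bp away in 45, and downstream of it in 61. At the start itself 98.5% and 99.3% of regions were covered by a peak of 6 h replicates 1 and 2, and 9.63% and 38.5% by a peak of 0 h replicates 1 and 2. At 1000 bp downstream, 6 h peaks still covered 67.4% and 70.4%, and 0 h peaks 0% and 6.67%. At 1000 bp upstream, 6 h peaks covered 51.1% and 56.3%, and 0 h peaks 2.22% and 8.89%. The 135 regions were selected on their 6 h width and a start inside, so high 6 h coverage near the start follows largely from the selection. The 0 h lists did not enter it, so the gap between the time points is not a measure of change.

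**Figure D5:**
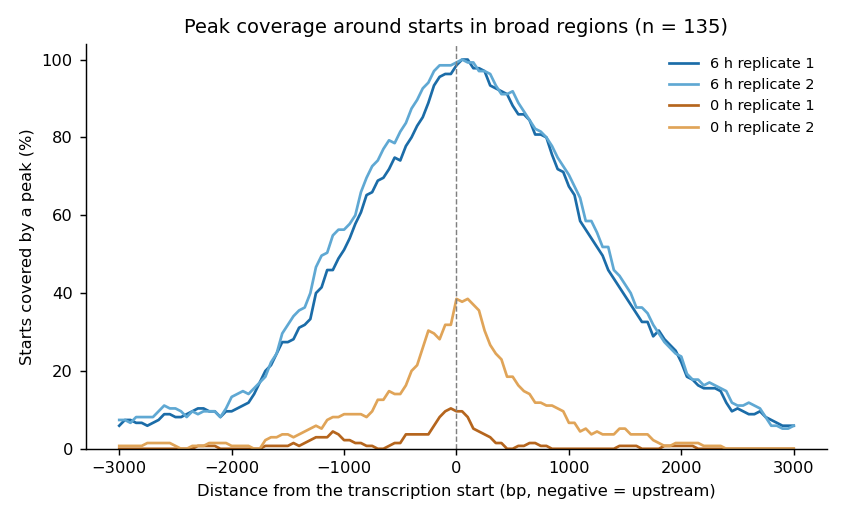
Percent of the 135 broad regions with a transcription start in which a peak of each library covers a given distance in bp from the start nearest the strongest summit, negative upstream in the reading direction of the gene. The 6 h curves stay above 50% out to 1000 bp on both sides, while the 0 h curves reach 9.63% and 38.5% at the start. The regions were selected on 6 h width and a start inside, which favours high 6 h coverage there.

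Regions with and without a start differed in how reproducibly they were found at 0 h. A replicated 0 h region overlapped 29 of 135 with a start (21.5%, 14.9 to 29.4) and 40 of 99 without (40.4%, 30.7 to 50.7), against 3.67% and 4.58% of the narrower regions with and without a start. Any 0 h peak overlapped 95 (70.4%) and 61 (61.6%). The regions without a start were higher at 6 h, with a median fold of 20.2 and 32.8 against 17.3 and 24.6. The difference between the groups of regions was not tested.

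The broad regions overlapped 289 annotated genes, 223 of them protein-coding, while 18 overlapped none and 38 held the starts of 2 or more genes. Runx1, Kdm6b and Midn were the genes with 2 broad regions each. Kdm6b encodes a demethylase of lysine 27 of histone H3. Its regions, 5066 bp apart, had a fold of 18.7 and 20.4, with no 0 h peak, and of 16.8 and 23.5, with 6.38 and 6.85 at 0 h. Midn encodes midnolin, which carries nuclear proteins to the proteasome. Its regions were 157 bp apart, with a fold of 9.71 and 16.1 and of 7.27 and 10.3, and 0 h peaks in replicate 2 only (6.04 and 6.51). With the stronger region outside genes described above, 3 broad regions lay together at Midn.

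Another close pair lay at Neat1, the noncoding RNA of paraspeckles (chr19:5843475-5846466), where a gap of 113 bp separated the region over the gene from the next one (chr19:5846580-5849689). The region over Neat1 had a fold of 24.5 and 32.6 at 6 h and 9.19 and 9.08 at 0 h. Its neighbour had 17.4 and 28.9 at 6 h and no 0 h peak. With peaks up to 500 bp apart merged, they would count as a single region.

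The gene lists showed how the broad regions fell on known groups. Over all 21900 protein-coding genes, 320 had a broad region in the gene or within 10 kb (1.46%), and 11680 had a replicated 6 h region of any width (53.3%). Of 11 AP-1 factor genes, which encode dimeric factors induced early after hormone signals, 6 had a broad region and all 11 a replicated one. The list is short, and the count is a description.

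Jun had the widest of these (chr4:95049924-95053425, 3502 bp) over its start and that of the antisense Junos. Its fold was 4.63 and 13.5 at 6 h, on the raised background named above, and 8.40 at 0 h in replicate 2 only. Fos (2269 bp) had 11.6 and 11.0 at 6 h and Junb (2007 bp) had 12.5 and 13.1. Neither of these broad regions, both at immediate-early genes, had a 0 h peak. Fosl2 (2085 bp) was higher, with 28.2 and 44.6 at 6 h and 9.75 and 14.4 at 0 h. Atf3 (2104 bp) had 30.5 and 35.1 at 6 h and 7.13 and 8.05 at 0 h. Jund (2088 bp) had 16.3 and 18.5 at 6 h and 5.84 and 6.63 at 0 h. In the broad regions with peaks in all 4 libraries, those at Fosl2, Atf3 and Jund, both 6 h folds lay above both 0 h folds. Selection on 6 h peaks favours that direction, and the difference was not tested. The widest replicated regions at the other AP-1 genes were 1470 bp at Fosl1, 1406 bp at Jdp2, 761 bp near Fosb, 425 bp at Batf and 328 bp at Batf3.

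Of 16 BTB zinc finger and Kruppel-like factor genes, 4 had a broad region. Klf10 (3456 bp) had a fold of 29.7 and 41.1 at 6 h and 7.20 in 0 h replicate 2, and Zbtb7a (2526 bp) had 14.1 and 17.6 at 6 h and 6.57 in 0 h replicate 2. Klf13 was described above. The region counted for Klf9 lay 4679 bp from the gene over 2410080I02Rik and had 13.6 and 26.0 at 6 h and 8.21 in 0 h replicate 2. None of the 4 had a peak in 0 h replicate 1.

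Of 20 genes of the ovulatory response, 3 had a broad region: Runx1, Fosl2 and Cebpb, which encodes a factor needed for luteinisation. Cebpb (chr2:167687105-167689428, 2324 bp) had a fold of 17.4 and 29.2 at 6 h and 5.48 and 10.5 at 0 h. A replicated 6 h region of any width was counted for 13 of the 20, against 53.3% of all protein-coding genes. None was counted for Ptgs2, Areg, Ereg, Btc, Has2, Il6 and Ptx3. These encode enzymes, growth factors, a cytokine and a matrix protein of the ovulating follicle. Of 20 genes of the growing follicle, Gata4 and Amh were counted, and 18 had a replicated region. Amh, the granulosa hormone that restrains follicle recruitment, lay 5670 bp from the region over the starts of Plekhj1 and Sf3a2 (2024 bp, fold 25.2 and 30.9 at 6 h and 5.60 and 9.86 at 0 h), so 2 other genes lie closer to it.

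Of 12 RUNX factors and partners, Runx1 and Tle1 had broad regions. Tle1 (chr4:72199146-72201782, 2637 bp) had a fold of 38.8 and 46.6 at 6 h and 4.99 and 10.7 at 0 h. Runx2, which has 11 replicated regions, reached 1171 bp, Cbfb 1340 bp and Runx3 597 bp. The widest region of the last, like that of Cbfb, had no 0 h peak.

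No broad region was counted for any of the 20 Hippo and TEAD genes, 21 actin and focal adhesion genes, 24 TGF-beta and BMP signalling genes, 18 MAPK and EGF receptor feedback genes or 18 nuclear receptor coregulator genes. Over all protein-coding genes the share with a broad region was 1.46%, at which lists of this size hold few or none. Replicated 6 h regions of any width were counted for 19, 20, 23, 17 and 18 genes of these lists, against 53.3% of all protein-coding genes. The widest of these was a region of 1993 bp at Ski, a corepressor of SMAD signalling (fold 7.51 and 15.8, no 0 h peak). It was followed by 1965 bp at Ep300, a histone acetyltransferase gene (fold 23.9 and 32.9), and 1947 bp near Actg1, cytoplasmic actin (fold 23.2 and 22.9), both with a 0 h peak. Across all 176 genes of these lists, 15 had a broad region.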

How the data were processed

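The 4 deposited peak lists, 1 per ChIP library, were used as the authors made them. Reads had 75 nt, single end, per the labels, and the submitters' processing notes name Bowtie2 2.2.5, MACS2 (version and settings not given in the sources used here) and the build mm10. The caller's settings decide where neighbouring peaks are joined, so the widths, the peak numbers per region and the membership of the 234 depend on them. The 2 pooled inputs entered only through the calls. Per the file headers and columns, the authors deposited for each peak its interval and summit, the fold enrichment (a ratio of pileup to local background), and the −log10 p-value and −log10 q-value. The smallest −log10 p of a list was 9.01 to 9.18. These are the peaks' own values. Percentiles are ranks within a list, while folds of different lists are set side by side as a description, without scaling between libraries. No column of another sample was used.

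Peaks were merged and compared with Python 3.11.15, numpy 2.4.6, scipy 1.17.1 and matplotlib 3.10.9, counting an overlap of at least 1 bp. The pileup and background behind each peak were solved from its fold and p-value, to within 0.005 in −log10 p, for 100% of peaks. A percentile is the rank of a peak's fold within its list. The strongest 6 h peak of a region is the one with the higher percentile in its own list. Genes and promoters are RefSeq on GRCm38.p6, the assembly of mm10, and a gene end is either end of a gene. The merging, overlap and recovery steps were tested on simulated data. Read totals were not stated, so intervals (exact Clopper-Pearson, 95%) cover counting error over regions only.

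No test was made. Regions are not replicates of a time point, and with 2 libraries against 2 the smallest exact permutation p is 0.333. The broad regions and the gene lists were chosen with earlier results of these data known. Regions named are the 10 widest, the 10 highest at 6 h, the 5 with most peaks, the 10 highest at 0 h, the 10 highest without a 0 h peak, those at the limit and those within 10 kb of a listed gene. The pairs of neighbouring regions, the genes with more than 1 region and the regions on raised background were named after their values were seen. The alternatives changed the width limit, the merging distance, the q-value, the overlap rule, the gene ends and the libraries. Leaving out regions on raised background, and using only promoter windows whole inside a region, were chosen after seeing the data. The genome sequence was not used here, so region sequences, repeats and exons were not analysed here.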

Additional observations from a re-analysis of the deposited data

How the results depend on the processing

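Of 59 alternatives, 34 left the value within the spread used for it and 25 moved it. With peaks of a −log10 q of at least 20, the share with a replicated 0 h region was 15.7% and with any 0 h peak 38.9%. A limit of 1500 bp gave 854 regions, 20.02% and 57.0%, and a limit of 3000 bp gave 43 regions and 74.4% with any 0 h peak. Merging peaks up to 500 bp apart gave 655 regions with a median of 4 peaks, 18.8% and 52.4%. Requiring a single peak of 2000 bp in each replicate gave 94 regions, 39.4% and 79.8%. A 0 h summit within 100 bp of a 6 h summit was found in 52.6%. Counting only overlaps of 50% of both intervals left 3.42% for a replicated 0 h region and 3.42% for any 0 h peak. A gene end inside fell to 57.7% with ends of protein-coding genes only and came to 76.1% within 1 kb of the region. The cause was not tested, apart from what each construction fixes. For the changed q-value, merging distance, summit distance and shared 50%, the 0 h shares over all replicated 6 h regions are not given. Whether the excess in broad regions holds under them was therefore not tested.

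Leaving out each 6 h library in turn gave 127 to 178 regions, a median of 1 to 1 peaks and 65.7% to 67.7% with a gene end, which the 0 h libraries do not enter. Over all 4 libraries left out in turn, 30.3% to 65.8% had a replicated 0 h region and 30.3% to 75.6% any 0 h peak. Without 0 h replicate 1 the replicated share was 65.8%, and without 0 h replicate 2 the share with any peak was 30.3%, since a single 0 h list then stood for both counts. Without 6 h replicate 2, 127 regions were left and 75.6% had a 0 h peak. Without the 5 regions on raised background 29.7% had a replicated 0 h region, 66.8% any 0 h peak and 66.8% a gene end. In promoter windows whole inside a region, 22.9% held a RUNX core. No paired analysis was possible because the results come from no test, and the labels do not say whether a replicate number links libraries of the time points. The unequal 0 h lists of 948 and 3135 peaks limit every statement on 0 h overlap.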

Other observations

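Gene families were also counted after the genes of the broad regions had been seen, so their counts were chosen on these values and carry no weight as evidence. Of 21 Hnrnp genes, which encode RNA-binding proteins of the nucleus, 7 had a broad region, against 1.46% of all protein-coding genes, and 19 had a replicated 6 h region. The fold of the strongest peak was 23.7 in 6 h replicate 1 and 25.3 in replicate 2 at Hnrnpa2b1, whose region also covers Cbx3, 19.0 and 21.6 at Hnrnpk and Rmi1, and 13.6 and 18.5 at Hnrnpdl and Enoph1. The other 4 were Hnrnpul1 (24.9 and 23.1), Hnrnpl (12.4 and 15.1), Hnrnph1 (24.9 and 16.1) and Hnrnpul2 (21.5 and 18.8). At 0 h all 7 regions had peaks in replicate 2 only, with a fold between 5.14 at Hnrnpul1 and 7.94 at Hnrnph1.

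Genes of messenger RNA decay and of early signalling were also among them. Of 4 Zfp36 genes, which encode proteins that bind AU-rich messenger RNA, 3 were counted. Zfp36l2 (3372 bp) had a fold of 6.70 and 13.3 at 6 h and 5.21 and 8.92 at 0 h. Zfp36l1 (2597 bp) had 8.03 and 24.3 and no 0 h peak, and the region counted for Zfp36 (3520 bp) lay outside genes, 2024 bp from an end of Med29, with 38.0 and 53.1 at 6 h and 6.10 and 9.14 at 0 h. Of 4 Egr zinc finger genes, Egr3 (3690 bp) had 19.8 and 35.9 at 6 h and 6.73 in 0 h replicate 2, and Egr1 (2120 bp) had 19.3 and 19.7 and no 0 h peak. Of 3 Pim kinase genes, Pim1 (3421 bp) had 28.9 and 39.7 at 6 h and 8.21 in 0 h replicate 2, and Pim3 (2847 bp) had 21.0 and 24.0 at 6 h and 8.42 in 0 h replicate 2. None of the Egr and Pim regions had a peak in 0 h replicate 1.

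Of 7 Socs genes, which encode suppressors of cytokine signalling, Socs1 (2662 bp) had 25.9 and 37.2 at 6 h and 9.44 in 0 h replicate 2. The region counted for Socs3 (2052 bp, 3087 bp from the gene end) had 31.3 and 43.1 at 6 h and 6.17 in 0 h replicate 2. Of 6 Cebp genes, Cebpa joined Cebpb, with 3041 bp, 15.6 and 19.1 at 6 h and no 0 h peak. Of 57 core histone genes, 7 lay in 3 broad regions on chromosome 3 with folds from 14.5 to 19.6 at 6 h. The copies there, such as H3c14 and H3c15, are nearly identical, and how the reads were shared among them is not given in the sources used here.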
